A study of Mus musculus with 75 samples.

Results

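The regions described here are 431 stretches of open chromatin in the mouse hypothalamus whose openness differed between sorted nuclei while the H3K27ac regions they lie in differed little in the mean of all libraries. The nuclei came from LepRcre/+; SUN1-sfGFP/+ mice, in which Cre made under the leptin receptor gene turns on a fluorescent tag of the nuclear envelope. GFP-positive nuclei are therefore those of cells that have expressed the leptin receptor, and GFP-negative nuclei are the remaining hypothalamic nuclei, neurons and other cells together. All groups carried the same driver and tag. The 4 treatments, given here by their labels' short names, were compared in each sort. Fed mice ate freely for 36 h, and their label also names saline, while the treatment protocol lists no injection for them. Fast mice were fasted for 36 h with saline injections at 12, 24 and 34 h. Lep2 mice were fasted for 36 h and given leptin at 5 mg/kg once, at 34 h, the only injection the protocol lists for them. Lep24 mice were fasted for 36 h and given the same dose at 12, 24 and 34 h. Each of the 8 groups had 2 libraries in each assay, so 16 ATAC and 16 H3K27ac libraries were used. Hypothalami were pooled before sorting, and the labels do not say that replicates came from separate pools, so a p-value here covers only the spread of these libraries, which may be technical.

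ATAC-seq reads out chromatin that the Tn5 transposase can enter, such as promoters and enhancers free of nucleosomes. H3K27ac is an acetylated histone found on the nucleosomes beside active promoters and enhancers, often as long domains that hold several open sites. The 2 marks usually go together, but an open site can also be held by a factor that brings no acetylation, and an acetylated domain can keep its level while a single site in it opens or closes. In the hypothalamus, leptin receptor neurons respond to the hormone leptin, which falls in fasting and reduces food intake.

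The members were chosen by their sort difference, called D: the mean log2(signal + 1) of the 8 GFP-positive libraries minus that of the 8 GFP-negative libraries. A member is an ATAC region on chromosomes 1 to 19 with a mean signal of at least 10, an absolute ATAC D of at least 0.7, and an overlap of at least 1 bp with 1 or more H3K27ac regions that all have an absolute D under 0.2. An H3K27ac region in this sense, 1 line of the deposited table with 1 value per library, is called a row below. Of the 48634 ATAC regions in the table, 30798 were on these chromosomes at this signal, 1743 of them had an absolute D of at least 0.7, 1510 of these overlapped a row, and 431 met the whole rule. That is 1.40% of the 30798. The members lay over 425 distinct rows of the 126368 in the H3K27ac table, in 438 pairs of region and row. Since D chose the members, their D in either assay is a description and no test of it is given. The files pair no region with a gene name, and no annotation of build mm9 was used, so regions are given by position alone. For the same reason the sorted cell types could not be checked against marker genes, and the RNA libraries were not analysed here.

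The members split almost evenly into 214 regions more open and 217 regions less open in GFP-positive nuclei. The more open regions had a D from 0.70 to 1.35 with a median of 0.80, a 1.74-fold difference on the log2(signal + 1) scale. The less open regions had a D from -2.07 to -0.70 with a median of -0.85, a 1.803-fold difference, and the most extreme of them differed 4.20-fold. Most lay near the threshold: 102 more open regions (47.7%) and 71 less open regions (32.7%) had an absolute D under 0.8, while 30 and 55 reached 1. In nuclei sorted in bulk, fewer cells with an open site and less openness per cell cannot be told apart. The members were weak ATAC regions. Their median signal was 12.8, and 375 of 431 (87.0%) were under 20, compared with 46.6% of the 29541 regions of sufficient signal that overlap a row.

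In the more open regions, the median signal over members was lowest at 15.9, at the median 17.15 and highest at 20.4 among the 8 GFP-positive libraries. In the 8 GFP-negative libraries it was 8.5, 9.1 and 9.8. In the less open regions these values were 8.4, 9.6 and 11.8 in GFP-positive libraries and 16.2, 17.6 and 18.8 in GFP-negative libraries. The library medians of the sorts thus did not overlap in either direction, as the choice of members requires at least on average. The rows under the same regions had overlapping medians. Under more open regions, the H3K27ac median was between 229.75 and 280.55 in GFP-positive libraries and between 207 and 283.45 in GFP-negative libraries. Under less open regions it was between 119 and 149.7 and between 122.1 and 143.4.

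**Figure D1:**
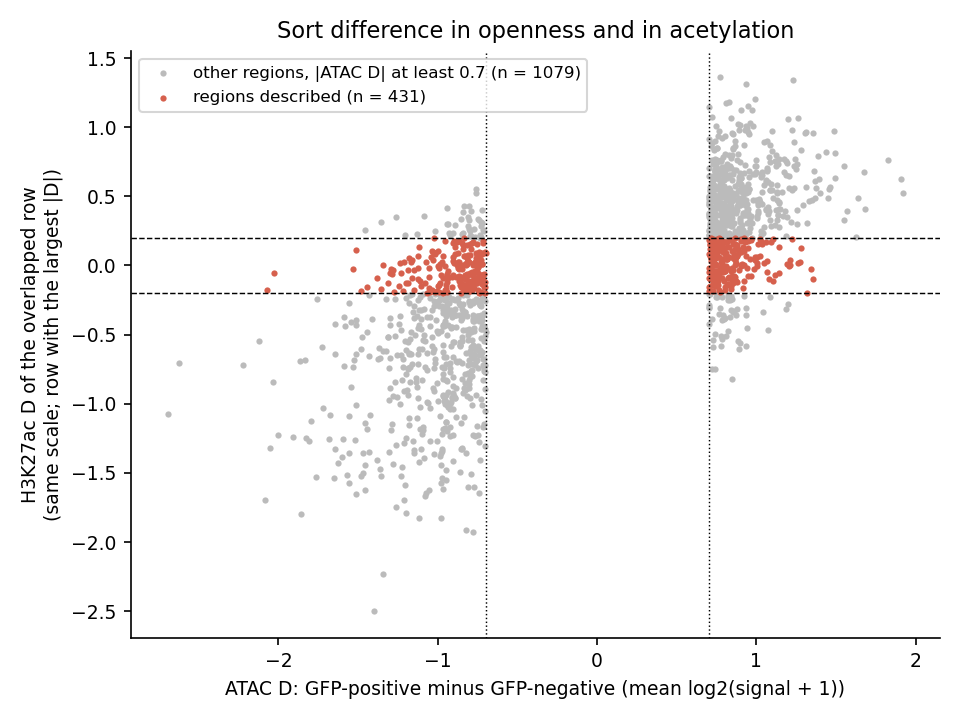
Sort difference D of the 1510 ATAC regions with an absolute D of at least 0.7 that overlap an H3K27ac row, on the x axis, against the D of that row, on the y axis, both as differences of mean log2(signal + 1). The 431 members (red) lie between the dashed lines at an H3K27ac D of -0.2 and 0.2 by the rule, and the other regions (grey) lie mostly above them on the right and below them on the left.

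**Figure D2:**
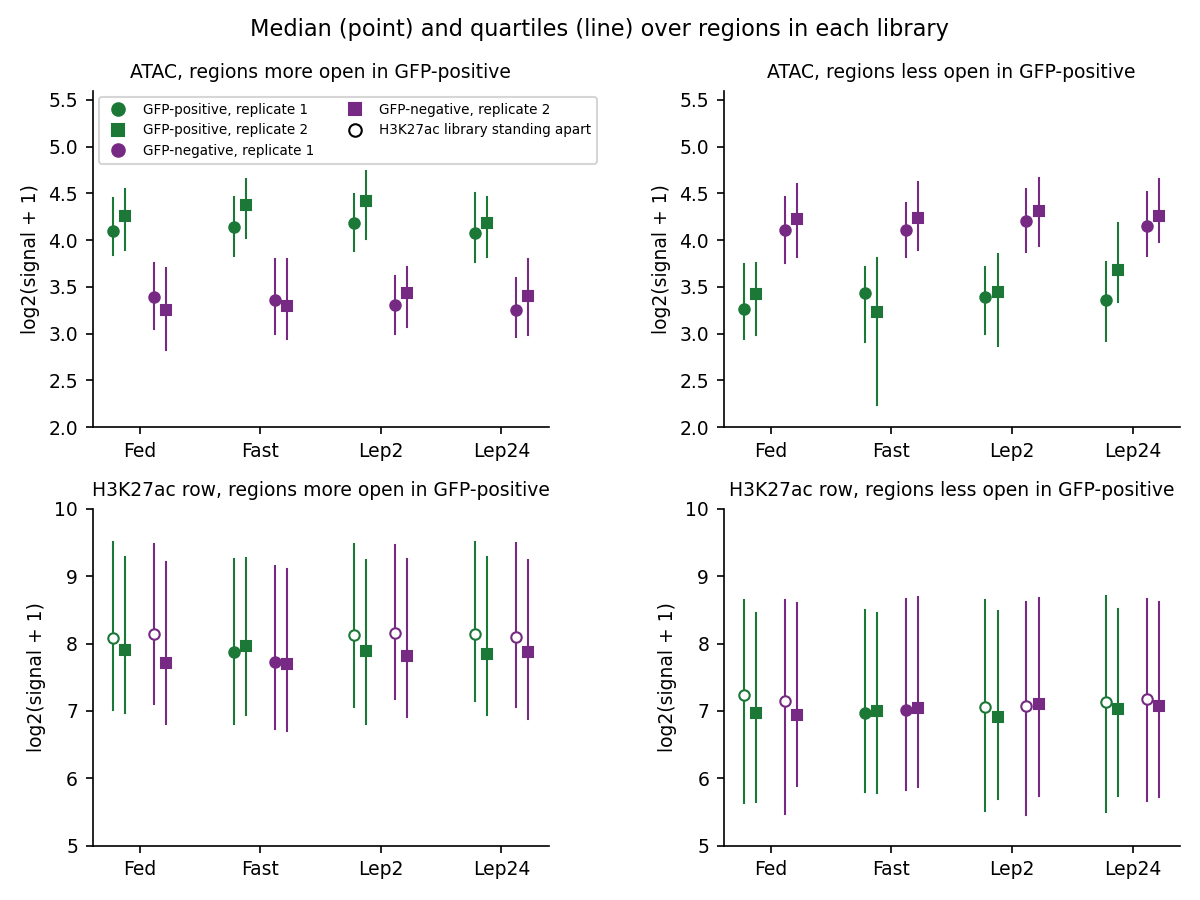
Median (point) and quartiles (line) over members of log2(signal + 1) in each library, for ATAC (top) and for the overlapped H3K27ac row (bottom), by treatment, sort (colour) and replicate (shape), with open points for the 6 H3K27ac libraries that stood apart. The sorts separate in the ATAC panels, where the library medians of more open regions lie between 15.9 and 20.4 in GFP-positive and between 8.5 and 9.8 in GFP-negative libraries, and they interleave in the H3K27ac panels.

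At single regions the sorts were less cleanly apart than in the medians. The 8 values of one sort all lay beyond the 8 of the other in 64 of 431 members (14.8%), 30 more open and 34 less open, against 1.55% of the 30798 regions. When GFP-positive and GFP-negative libraries of the same treatment and replicate number were set side by side, 245 members (127 more open, 118 less open) had the same sign in 8 of 8 comparisons. That is 56.8% of members, against 8.71% of the 30798 regions, and the excess follows from the choice by D. A further 77 and 85 had it in 7. In the limma fit across all regions, 203 more open and 185 less open members, 388 in all, passed an adjusted p of 0.05 for the sort, where 9.79% of all ATAC regions tested did. The rule used that contrast, so nothing is read from this count. None of the 424 rows tested passed for H3K27ac, where 9.22% of all rows did and where no row under a member had an unadjusted p under 0.05, and this too follows from the rule. In the authors' deposited table, 11 of the 431 members had an FDR under 0.05 between sorts, of 140 such regions among the 34310 given an FDR, and 7 of the 420 rows given one, compared with 15.4% of all rows given an FDR. The ATAC log2 fold changes in the authors' deposited table had the sign of D in 431 of 431 members, and in 40576 of the 48634 regions of the table. Both measures compare the sorts in the same libraries, so the match in members largely follows from the choice by D.

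The largest openness in favour of GFP-positive nuclei was at chr10:12525459-12526062, a region of 604 bp alone in a row of 3377 bp. Its signal was lowest at 14.5, at the median 21.1 and highest at 27.4 in GFP-positive libraries, and 5.7, 7.15 and 13.1 in GFP-negative libraries. The sorts did not overlap, and D was 1.35, a 2.55-fold difference. Its H3K27ac row had values from 48.7 to 68.7 in GFP-positive libraries, inside the span of 46.6 to 88.1 in GFP-negative libraries. The region chr2:167795139-167795964 was next, with a D of 1.34. Its signal ranged from 13.1 to 38 in GFP-positive libraries and from 4 to 9.5 in GFP-negative libraries. It is a small open site in a broad and strongly acetylated row of 69557 bp, whose mean signal was 1720 and whose D was -0.02.

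The other 4 of the 6 most open members had a D between 1.26 and 1.32. At chr6:125304537-125305242 the GFP-positive libraries ranged from 16.1 to 37.6 and the GFP-negative ones from 4.7 to 11.1. At chr6:118198565-118199118 the ranges were 11.2 to 19.7 and 4.1 to 10.8. Neither region had overlapping sorts. At chr12:3312783-3313268 the lowest GFP-positive value, 10.4, equalled the highest GFP-negative one. At chr4:151627422-151628191 the ranges of 8 to 26.3 and 3.1 to 10.8 overlapped. The last of these sits in a row of 102986 bp that holds 15 ATAC regions.

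The strongest loss of openness was at chr9:57316778-57317105, a region of 328 bp. Its signal was lowest at 0, at the median 2.8 and highest at 13 in GFP-positive libraries, and 11.8, 16.55 and 25.8 in GFP-negative libraries. D was -2.07. Only the Fast GFP-positive replicate 2 value of 13 reached into the GFP-negative span. The row of 9297 bp around it had values from 268.6 to 394.7 in GFP-positive and from 236.6 to 501.6 in GFP-negative libraries, with a D of -0.17. Its D was 0.11 in the 6 H3K27ac libraries that stood apart, described below, and -0.34 in the other 10. In those 10 the row had 336.2 to 394.7 in GFP-positive and 405.7 to 501.6 in GFP-negative libraries, without overlap. A similar loss of openness was seen at chr2:112339105-112339534 (D of -2.03). The GFP-positive libraries were between 0 and 10.5 there and the GFP-negative libraries between 13.1 and 29.7, without overlap. The centre of that region lies 231 bp from the edge of its row, which has a D of -0.05.

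A further 4 less open regions completed the 6 with the lowest D. At chr1:73770732-73771621 the ranges were 0 to 11.5 in GFP-positive and 13.9 to 26.5 in GFP-negative libraries. At chr2:148217183-148217670 they were 4.6 to 12.1 and 17 to 39. At chr7:51729580-51730797 they were 6.5 to 30.7 and 31.1 to 55. These 3 regions had no overlap between sorts, with D of -1.53, -1.51 and -1.44. At chr4:140213555-140214398 (D of -1.48) the ranges of 5.3 to 23.7 and 16.8 to 49.5 overlapped: the GFP-positive values of Lep24 replicate 2 (23.7) and Fed replicate 2 (18.1) lay above the GFP-negative value of Lep24 replicate 1 (16.8). Many less open members approached the lower end of the measurement: 35 had a value of 0 in a GFP-positive library, 20 of them in Fast GFP-positive replicate 2 and 10 in Lep2 GFP-positive replicate 2. One more open member had a 0 in a GFP-negative library. Fast GFP-positive replicate 2 was also the library with the most zeros over the whole ATAC table, 7.31% of regions compared with 2.36% to 5.05% in the others.

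The strongest members by ATAC signal showed the same size of difference at levels far from 0. The strongest of the more open ones was chr8:72939437-72941570, of 2134 bp and mean signal 55.9. Its GFP-positive values were lowest at 51.4, at the median 68.55 and highest at 91.4, and its GFP-negative values 21.7, 45.05 and 56.6, which overlap (D of 0.73). At chr7:106733622-106736529 the GFP-positive range was 35 to 78.8 and the GFP-negative range 28.4 to 39.4, where only Fast GFP-positive replicate 2 fell within the GFP-negative span. At chr5:124598044-124599412 the ranges were 35.6 to 59.3 and 20.4 to 32.1, without overlap. Their H3K27ac rows had D of 0.12, -0.00 and -0.04.

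The strongest less open region was chr2:116800429-116802029, of 1601 bp and mean signal 49.7. Its values were lowest at 22.3, at the median 31.25 and highest at 41.4 in GFP-positive libraries and 49.7, 68.15 and 88.5 in GFP-negative libraries, with no overlap and a D of -1.15. Its row of 9618 bp spanned 259.5 to 412.8 and 250.4 to 462.8, with a D of -0.03. At chr9:66459301-66460445 the GFP-positive libraries spanned 18.5 to 39.3 and the GFP-negative ones 32.1 to 59.7. At chr17:65305187-65306408 they spanned 15.5 to 33 and 29.7 to 63.8. Each of these last 2 regions overlapped between sorts at the margin.

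The members nearest to each threshold show how thin the border is. The more open member closest to the ATAC limit, chr9:40095912-40096601, had a D of 0.701, and chr12:117861131-117861731 missed it at 0.69996. On the less open side, chr4:87910152-87910795 entered at -0.7003 and chr19:24035927-24036469 missed at -0.69944. The H3K27ac limit admitted chr4:139640089-139640945 with a row D of absolute size 0.199 and left out chr6:29831858-29832344 at 0.20015. The signal limit admitted chr11:8469370-8469934 at a mean of 10.02 and left out chr11:67332416-67332912 at 9.99.

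Differences in openness without a difference in the row were a minority among regions with a large D. Of the 1510 regions with an absolute D of at least 0.7 over a row, 28.5% had all rows under 0.2, compared with 54.0% of the 28031 regions with a smaller D. The share fell along the size of the openness difference, from 57.5% of regions with an absolute D under 0.1 to 39.8% between 0.5 and 0.7, 34.3% between 0.7 and 0.85, 27.4% between 0.85 and 1, and 20.0% at 1 or more. Most of the remaining regions, 982, differed in acetylation in the direction of the openness, 97 differed in the opposite direction or in both, and a further 233 regions of large D overlapped no row.

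The H3K27ac rows were long under more open members but not under less open ones. With both directions pooled, their median length was 10066 bp. It was 6706 bp for the 982 regions that differed the same way in both assays and 8949 bp for the 9205 regions with an absolute D under 0.2 in both. The more open members lay in rows of median 12555 bp and the less open members in rows of median 7465 bp. The median of all 29541 regions with a row was 7694 bp. In the set that differed the same way in both assays the order was reversed, with medians of 5708 bp under more open and 7708 bp under less open regions. Rows of at least 10000 bp held 60.3% of more open and 40.1% of less open members, compared with 25.4% and 40.6% in that set. Rows under 2000 bp held 9 more open and 31 less open members. The length of a row was not part of the rule. The H3K27ac signal of the row moved with it, with a pooled median of 203.7 under members and 120.6 in the set that differed the same way. By direction it was 243.8 under more open and 134.7 under less open members, and 103.4 and 144.1 in that set. The part of signal in the difference was not tested.

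**Figure D3:**
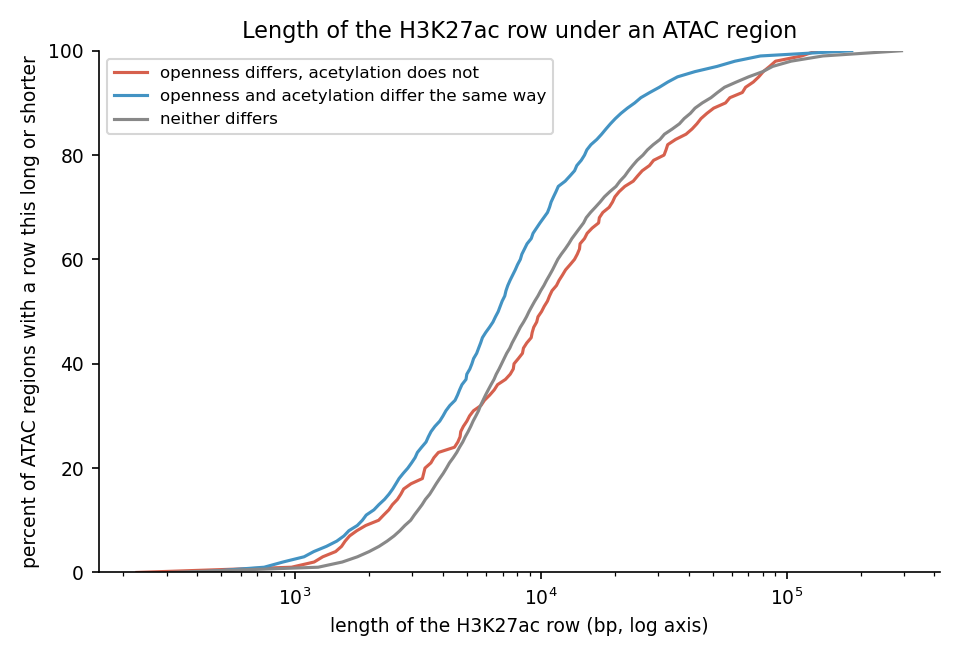
Cumulative percentage of ATAC regions (y axis) by the length of their H3K27ac row in bp (x axis, logarithmic) for the 431 members (red), the 982 regions that differ the same way in both assays (blue) and the 9205 regions that differ in neither (grey). The red curve lies to the right of the blue one, with medians of 10066 and 6706 bp. Both directions are pooled, and the median was 12555 bp for more open and 7465 bp for less open members.

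Read the other way, the share of regions of large D that were members was higher in the longest rows. It was 23.5% for rows under 2000 bp, 23.2% from 2000 to 5000 bp and 22.7% from 5000 to 10000 bp. It was 31.6% from 10000 to 20000 bp, 38.5% from 20000 to 50000 bp and 55.1% above that, where 49 of 89 regions were members.

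A member covered little of its row. Its length was at the median 7.41% of the row's, compared with 11.5% in the set that differed the same way. By direction it was 5.89% for more open and 10.8% for less open members, and 13.2% and 10.0% in that set. A member thus contributes a small part of the DNA over which its acetylation value was summed. Acetylation at the open site itself was not measured apart from the row. The member was the single ATAC region of its row in 214 cases (49.7%), compared with 68.4% in the set that differed the same way and 54.9% of regions that differed in neither assay. The H3K27ac signal per kb of row was at the median 19.1 under members and 18.4 in the set that differed the same way, and 29.4 where neither assay differed. The members had a median length of 734 bp, 742 bp in the set that differed the same way and 1274 bp where neither differed. Their centres were spread over the rows, the median relative distance from the edge of the row (0) to its centre (1) being 0.61, compared with 0.67 in the set that differed the same way.

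The broadest rows show how far the scales differ. The most strongly acetylated row under a more open member was the one of 82708 bp around chr5:143556657-143557706, with a mean signal of 3547. The ATAC values there were 15.2 to 32.7 in GFP-positive and 6 to 17.7 in GFP-negative libraries. The member chr4:151576915-151577920 shares the row of 102986 bp named above and ranged from 27.7 to 43.6 and from 12.5 to 27.5, without overlap. The most strongly acetylated row under any member, with a mean of 4192, spans 129472 bp around the less open region chr5:37267626-37268623, whose ATAC values were 7.8 to 15.3 and 15.4 to 26.6, again without overlap. That row had 3266.4 to 5027.6 in GFP-positive and 3532.1 to 5320.1 in GFP-negative libraries.

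The shortest row, of 227 bp, lay under the less open region chr6:127693857-127694342 and carried only 3.43 on average. This was the 1 row of 425 under the low-signal filter of the fit, and a D near 0 there reflects values between 0 and 8.2. In addition, 7 members lay across the border of 2 rows. Among them was chr2:148217183-148217670, over adjoining rows of 916 and 9231 bp with D of -0.07 and 0.11.

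Openness differences in opposite directions occurred inside single rows. Of the 431 members, 217 shared their row with other ATAC regions. They formed 749 pairs of a member and another region, in which a region counts once for each member of its row. In 395 of these pairs the other region had a D of the same sign as the member, and in 351 it had an absolute D under 0.2. It had a D of at least 0.7 in the same direction in 32 pairs and in the opposite direction in 27. In all, 12 rows held 2 or more members, 25 members together, and 6 of these rows held members of both directions. Between members, 6 neighbouring pairs lay within 5000 bp, 3 in the same direction and 3 in opposite directions.

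The closest opposite pair was chr16:24421751-24423026 and chr16:24424579-24425075, 1552 bp apart in a row of 17184 bp. At the first, the GFP-positive libraries were lowest at 16.7, at the median 28.4 and highest at 32.7, and the GFP-negative ones 8.4, 17.05 and 18.8 (D of 0.73). At the second they were 3.7, 7.15 and 11.1 and 9.5, 13.5 and 22.1 (D of -0.82). Both regions overlapped between sorts, the first because Fed replicate 2 and Lep24 replicate 2 of the GFP-positive sort were low. The other 2 ATAC regions of that row, chr16:24418030-24418482 and chr16:24428845-24429560, had D of 0.35 and -0.52. The row itself had 304.8 to 392.3 in GFP-positive and 252 to 399.7 in GFP-negative libraries, with a D of 0.05.

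**Figure D4:**
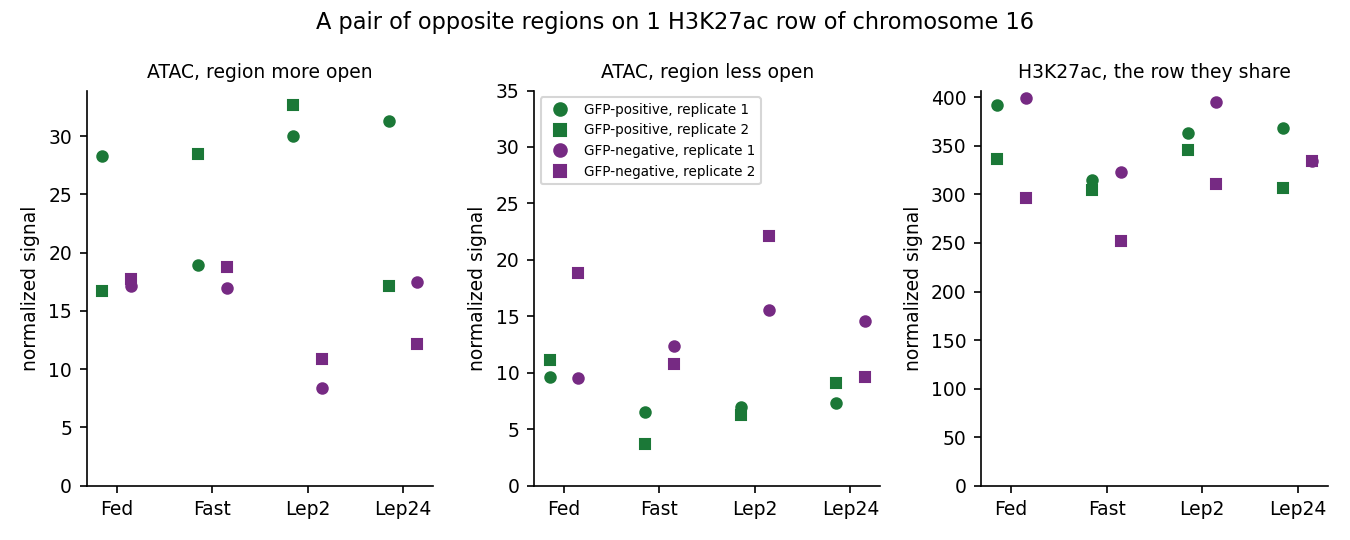
Normalized signal in each library (y axis, from 0) by treatment (x axis), sort (colour) and replicate (shape) at the closest pair of opposite members, on chromosome 16, and in the H3K27ac row of 17184 bp that holds both. GFP-positive libraries lie mostly higher in the first region, between 16.7 and 32.7, and mostly lower in the second, between 3.7 and 11.1, and the sorts mix in the row.

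A larger opposite pair, picked out after its values were seen, lies 1815 bp apart in a row of 15369 bp on chromosome 8. The region chr8:72740339-72740836 had 0 to 18.4 in GFP-positive and 4.7 to 23.3 in GFP-negative libraries (D of -1.23). The region chr8:72742652-72743915 had 19.1 to 47.9 and 7.4 to 16.3, without overlap (D of 1.14). The strongest ATAC region of that row, chr8:72735599-72737193, had a mean signal of 340.2 and a D of -0.16, and the row had a D of -0.05. The closest pair in the same direction, chr15:18748181-18748899 and chr15:18750937-18751495, is 2037 bp apart, with D of -0.72 and -0.81 in a shared row of 8555 bp. The second had a 0 in Fast GFP-positive replicate 2, with 6.9 to 17.8 in the other GFP-positive libraries. Their row had a D of 0.01 over all H3K27ac libraries. It was 0.46 in the 6 that stood apart, described below, and -0.26 in the other 10. The longest row under any member, 132814 bp on chromosome 5, held 3 members among its 15 ATAC regions. These were chr5:36172458-36173089 at a D of -1.05, and chr5:36193139-36193948 and chr5:36201742-36202621 at 0.70 and 0.71.

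Rows that adjoin the member's own row were not used by the rule. They were present for 357 members, in 613 pairs of a member and an adjoining row, in which a row may count more than once. The adjoining row had an absolute D under 0.2 in 298 pairs, a D of at least 0.2 in the direction of the member's openness in 191, and one in the opposite direction in 124. In 53 pairs the difference in the same direction reached 0.5. The same counts for other regions are not given, so nothing particular to members is read from them.

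In H3K27ac 6 libraries, namely replicate 1 of each sort in Fed, Lep2 and Lep24, stood apart from the other 10 over the whole table, and the D of the members' rows differed between the sets. When D was taken from the 10 other libraries alone, 298 of 431 rows stayed under 0.2, 108 differed by at least 0.2 in the direction of the openness and 25 in the opposite direction. The medians were 0.06 under more open and -0.11 under less open members. When D was taken from the 6 libraries, 337 rows were under 0.2, 42 differed in the direction of the openness and 52 in the opposite one, and the medians were -0.02 and 0.02. Because the rule holds the mean of both sets near 0, a row far from 0 in one set tends to be on the other side in the other set. Over all 29541 regions with a row, 50.7% of rows were under 0.2 in the 10 libraries and 51.3% in the 6.

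A fit on the 10 libraries alone, in which every group but the 2 Fast groups has a single library, called 128 of the 424 rows (30.2%) for the sort, compared with 32.5% of all rows. Counted over members, 135 of 431 lay in such a row, 108 in the direction of the openness and 27 in the opposite one, with a median absolute log2 difference of 0.22 and none above 0.46. With the 6 libraries as a term in the fit of all 16, 41 of 424 rows were called, compared with 26.6% of all rows. These counts use the contrast of the rule and are given as a description. The part of the 6 libraries in the choice of members was not tested further. The sets differed most visibly among the 12 members named for their D at chr6:118198565-118199118, a member with a row D of 0.12. Its row had a D of 0.49 in the 10 libraries and of -0.48 in the 6. In the 10, the values were 63.2 to 101 in GFP-positive and 49.6 to 60.7 in GFP-negative libraries.

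**Figure D5:**
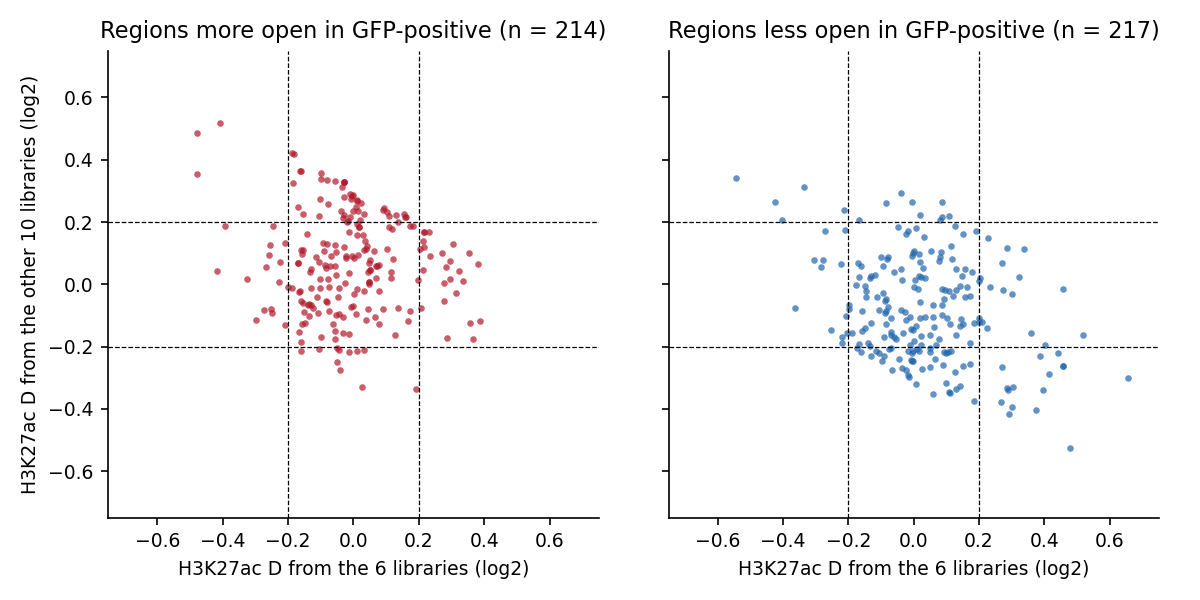
H3K27ac D of each member's row taken from the 6 libraries that stood apart (x axis) and from the other 10 (y axis), for 214 more open (left) and 217 less open members (right), in log2 units, with dashed lines at -0.2 and 0.2. In the 10 libraries 48 more open members lie above 0.2 and 60 less open members below -0.2, with 11 and 14 beyond the limit on the other side.

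The same rule was also applied to each replicate number alone and its members were described in the libraries it had not used. Chosen from replicate 1, 741 regions met the rule. In replicate 2, 678 of them (91.5%) kept the sign of the openness difference and 264 (35.6%) kept a D of at least 0.7 in that direction. The corresponding shares of all 29541 regions were 64.1% and 7.09%. Their rows stayed under 0.2 in 330 cases (44.5%), compared with 50.0% of all regions. Chosen from replicate 2, 771 regions met the rule. In replicate 1, 621 (80.5%) kept the sign, 142 (18.4%) kept a D of at least 0.7, and 586 (76.0%) had rows under 0.2, compared with 51.5% of all regions.

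The regions with an absolute D of at least 0.7 that were not chosen, because of their rows, give a second comparison. Of 1242 such regions from replicate 1, 90.9% kept the sign and 42.1% a D of at least 0.7 in replicate 2, and of 1652 from replicate 2, 89.2% and 39.0% did so in replicate 1. The chosen regions kept a large difference at a share above that of all regions, which follows largely from their choice by D. In the replicate that chose them their median absolute D was 0.86 and 0.84, compared with 0.19 and 0.24 over all regions. Their share was below that of regions of large D whose rows differed, which started from a median of 0.91 and 0.88. The part of these starting values in the shares was not tested. Rows under 0.2 in the other replicate were found for 7.57% and 32.6% of the regions not chosen. Flat rows chosen from replicate 1, which holds the 6 libraries, were flat in replicate 2 at a share below that of all regions, and those chosen from replicate 2 at one above it. In all, 106 regions met the rule in both replicates with the same direction, 14.3% of the 741 and 13.7% of the 771. All 106 had to be members, since D over all libraries is the mean of the D of the 2 replicates. They were 24.6% of the 431, 48 more open and 58 less open. The shares that met both conditions in the other replicate over all regions were 2.10% and 2.30%.

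Whether the members responded to fasting or leptin was asked in each sort, with contrasts that the rule did not use. The rule did use the same library values. A low GFP-positive value in any treatment lowered D, so these differences may not be independent of the choice of members. No member passed an adjusted p of 0.05 in the limma fit for ATAC in Fast against Fed, Lep2 against Fast or Lep24 against Fast in either sort, or for sort by treatment, and 0% of all 43770 ATAC regions tested did. The same held for the 424 rows, with 0% of 113731 H3K27ac rows tested. The 6 H3K27ac libraries that stood apart are replicate 1 of the Fed, Lep2 and Lep24 groups, and no Fast library is among them. In H3K27ac, a comparison with Fast is therefore partly mixed with that set. At 2 libraries a group, the 95% interval of a treatment difference reached at the median 0.87 to either side for members in ATAC. For their rows it reached 0.61, both on the log2 scale and without adjustment for the number of regions. A call at the adjusted p takes a larger change, so changes well above this size could be missed. The log2 difference of -2.89 given below had a limma adjusted p of 0.282.

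At an unadjusted p under 0.05, ATAC regions of GFP-positive nuclei gave 44 members (10.2%) for Fast against Fed, 50 (11.6%) for Lep2 against Fast and 52 (12.1%) for Lep24 against Fast. The shares of all regions tested were 6.56%, 7.85% and 6.70%. These 3 comparisons share the Fast libraries. In GFP-negative nuclei the counts were 12 (2.78%), 12 (2.78%) and 8 (1.86%), against 1.97%, 1.499% and 1.492%. Of the GFP-positive counts, 32, 39 and 39 were less open members, and all members in the GFP-negative counts were more open ones. These members mostly had the lower signal in the sort concerned, and the part of low signal in the counts was not tested. For sort by treatment it was 11 (2.55%), against 2.16%. Of the rows, 1 (0.236%), 3 (0.708%) and 1 (0.236%) reached this level in GFP-positive nuclei, against 1.91%, 3.27% and 2.65% of all rows. In GFP-negative nuclei the counts were 10 (2.36%), 7 (1.65%) and 13 (3.07%), against 5.98%, 4.63% and 6.06%. For sort by treatment it was 1 row (0.236%), against 1.58%. These shares of rows under members were below those of all rows.

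The less open members in GFP-positive nuclei had the widest treatment differences. Lep24 against Fast had a median log2 difference of 0.39, with 162 of 217 regions higher in Lep24, where the median of all eligible regions was -0.01. Lep2 against Fast had a median of 0.11 and Fast against Fed of -0.14. The library medians were 9.8 and 8.4 in Fast and 9.3 and 11.8 in Lep24, so the groups overlapped. The Fast values also entered the choice of these members, and the part of this in the differences was not tested. Without Fast GFP-positive replicate 2, the library with most zeros, the median difference was 0.24, with 134 of 217 higher, and without Lep24 GFP-positive replicate 2 it was 0.24, with 137 higher. It was 0.47 without Fast replicate 1 and 0.63 without Lep24 replicate 1. The more open members had medians of -0.06, 0.04 and 0.06 in the same 3 comparisons. The rows under less open members had medians of 0.04, 0.01 and -0.09.

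The sort difference within each treatment is given as a description, since D is the mean of these 4 differences and their sign and size follow from the rule. For more open members the median was 0.83 in Fed, 0.85 in Fast, 0.95 in Lep2 and 0.79 in Lep24, with 212, 212, 214 and 213 of 214 members above 0. For less open members it was -0.88, -1.04, -0.92 and -0.69, with 215, 216, 214 and 214 of 217 below 0. The limma test of sort by treatment called no member, as stated.

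The member with the smallest p was chr1:166161959-166162738, a less open region of 780 bp in a row of 2168 bp. In GFP-positive nuclei its signal was 18 and 11.1 in Fed, 3.2 and 0 in Fast, 10.4 and 16.9 in Lep2 and 11.3 and 9.1 in Lep24. Both Fast values lay under all 6 others. The GFP-negative libraries had 7 to 17.8, and Fast had both the lowest and the highest of them. They had 14 and 9.7 in Fed, 11.3 and 15.5 in Lep2 and 16.8 and 13.9 in Lep24. Only 5 of 8 comparisons of the same treatment and replicate number had the sign of D. The low GFP-positive Fast values thus entered both its choice as a less open region and its small p. The log2 difference was -2.89 (SE 0.54, limma adjusted p of 0.282) for Fast against Fed and 2.80 (SE 0.54, adjusted p of 0.165) for Lep2 against Fast. Its test of sort by treatment had an adjusted p of 1.00. The row had 44.7 and 35.9 in Fast and 21.1 to 46.5 in the other GFP-positive libraries.

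In GFP-positive nuclei, the smallest p for Lep24 against Fast was at chr10:92545709-92546318, also less open. Its values were 0 and 6.1 in Fast and 15.9 and 13.1 in Lep24, with 16.1 and 12.5 in Fed. The log2 difference was 2.53 (SE 0.55, limma adjusted p of 0.330). Both regions include a GFP-positive Fast value of 0, which also lowered their D. At the second, the GFP-negative Fed libraries had 13.3 and 15.4. In GFP-negative nuclei the smallest p were at more open members. At chr2:145155638-145156623 Fast had 19.3 and 18.8 and Fed 10.3 and 10.8, at chr10:76272569-76273229 Lep2 had 11.3 and 17.7 and Fast 6.3 and 5.7, and at chr11:52814089-52815176 Lep24 had 5.3 and 3.2 and Fast 13.1 and 13.9. All 3 had a limma adjusted p of 1.

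Among the rows, the smallest p in GFP-positive nuclei for Lep24 against Fast was at chr9:37702789-37705009, under the member chr9:37704159-37704773, with 17.6 and 21.3 in Lep24 and 32.9 and 42.4 in Fast (limma adjusted p of 0.942). The row chr7:80903417-80906548 had the smallest for both other GFP-positive comparisons, with 53.5 and 59.4 in Fast, 36.6 and 36.7 in Fed and 37.4 and 31.6 in Lep2 (limma adjusted p of 0.985 and 0.923). In GFP-negative nuclei, chr4:130550381-130554293 had 48.9 and 51.5 in Fast and 98.2 and 94.9 in Fed (0.716). The row chr1:188454907-188455714 had 9.3 and 8 in Lep2 and 29.6 and 14.2 in Fast (0.722). The row chr4:77386947-77390063 had 31.1 and 37.7 in Lep24 and 68.3 and 63.9 in Fast (0.714). The values in brackets are limma adjusted p.

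Single libraries moved several of these counts. Without Fast GFP-positive replicate 1, which leaves replicate 2 as the only GFP-positive Fast library, 24 members passed for Fast against Fed, 28 for Lep2 against Fast, 27 for Lep24 against Fast and 15 for sort by treatment. Of all regions tested, 3.16%, 3.42%, 3.56% and 0.829% passed there. Each of the first 3 counts included all 20 members with a 0 in the remaining Fast library, and the 15 were all among these 20. Without Lep2 GFP-positive replicate 1, members also passed for Lep2 against Fast and for sort by treatment. Members passed in each of the 4 tests without Fast GFP-positive replicate 2. Shares over all regions are not given for these 2 fits, so nothing is read from them. The single library left in a group is assumed in such a fit to vary like the other groups.

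The members were spread over all 19 autosomes. Chromosomes 2 and 11 held 41 each and chromosome 19 held 7, and the share of regions of sufficient signal that were members ran from 0.829% on chromosome 19 to 1.82% on chromosome 9.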

How the data were processed

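ATAC-seq and H3K27ac ChIP-seq of sorted hypothalamic nuclei were analysed. Of the 75 samples in the series, the 23 from RNA and the inputs, 16 for ChIP and 4 for ATAC, were not analysed here. Groups were taken from the sample titles and labelled treatments and sorts.

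The authors deposited, per the file headers, 1 table of normalized signal per assay, with a value for each region and library. The normalization method is not given in the sources used. Values carry 1 decimal and rise in uneven steps, 0.5 to 2.3 in ATAC and 0.3 to 1.6 in H3K27ac below a signal of 20, so read depth is unknown and no count model was used. Each region of low signal rests on few steps. The authors' log2 fold changes between sorts and their p-values (as FDR) stand in the same tables, per the file headers, and are quoted only as theirs. A further 32 columns of per-sample values were not used. Per the submitters' processing notes, the build is mm9, and Bowtie2 2.2.6, Bowtie 1.2, MACS2 and DESeq2 1.16.1 are among the tools, not tied to a step. Starts were raised by 1.

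Values were taken to log2(signal + 1), a scale that understates changes at low signal. The lowest 10% of regions by mean signal were left out of the fit (below 5.44 in ATAC and 5.96 in H3K27ac). limma 3.58.1 in R 4.3.3 fitted 8 group means to all 16 libraries of an assay with a trended prior, and two-sided p-values were adjusted by Benjamini-Hochberg over all regions tested. The fit was tested on simulated data. Alternatives were other pseudocounts, limits, filters, sets of libraries, quantile normalization, library weights, a replicate block, and each library left out in turn. Members were found with Python 3.11.15, pandas 2.3.3 and numpy 2.4.6 and plotted with matplotlib 3.10.9.

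The members, lists and tests were chosen with earlier results of these data known. Regions were named by rule: the 6 members with the highest and the 6 with the lowest D, the 3 of each direction with the highest ATAC signal, the 2 of each direction over the row with most H3K27ac signal, those over most rows and over the longest and shortest row, the smallest p of each treatment comparison, the regions nearest each threshold, and the closest pairs. Other named regions share a row with one of these, or are said to be chosen after their values were seen. The labels name 300000 to 540000 nuclei for ChIP-seq.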

Additional observations from a re-analysis of the deposited data

How the results depend on the processing

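Of 541 settings tried over the results, 499 kept the value within 1.5 times and 42 did not. Of the 356 that left out 1 library 14 did not, and of the other 185, 28 did not. Most counts of calls were 0 in the main fit, and a count that stayed at 0 is among those kept. The numbers of members with the replicate block, which could not change, are among them too. The number of members was 132 with a pseudocount of 5, 1056 without a minimum signal, 56 with a minimum of 20, 229 with an H3K27ac limit of 0.1, 85 with an ATAC limit of 1, 681 with H3K27ac D from the 6 libraries, and 741 and 771 from replicate 1 and 2 alone. It was 330 with D from the other 10 H3K27ac libraries, of which 295 were shared with the 431. Leaving out 1 library at a time gave 404 to 517, and leaving out both ATAC libraries with the most zeros, an alternative chosen after seeing the data, gave 402, of which 299 were shared.

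For the sort, 184 members passed in ATAC at an adjusted p of 0.01, and 297 to 403 with 1 library left out. The H3K27ac rows called for the sort were 4 after quantile normalization, 32 with a replicate block, 41 with the 6 libraries as a term, 128 with the 10 other libraries, and 0 with any 1 library left out. With the 10 other libraries, 3 rows were called for Lep24 against Fast in GFP-negative nuclei. With 1 ATAC library left out, the members called were 0 to 24 for Fast against Fed, 0 to 28 for Lep2 against Fast and 0 to 27 for Lep24 against Fast among GFP-positive libraries, 0 to 15 for sort by treatment, and 0 to 1 for Fast against Fed and for Lep2 against Fast in GFP-negative nuclei, the 1 without Fast GFP-negative replicate 1. Members were also called for Fast against Fed in GFP-positive nuclei without Fed GFP-positive replicate 1. Each of these fits leaves 1 library in a group. Among these fits, shares over all regions are given above only for the one without Fast GFP-positive replicate 1. In GFP-positive nuclei, the median difference of less open members for Lep24 against Fast was 0.24 to 0.63 with 1 library left out. The cause of these changes was not tested.

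The replicate numbers were not taken as pairing the libraries, since not every correlation of replicate differences was over 0.1 and no label names a shared batch. Between sorts it was 0.04 to 0.14 in ATAC and 0.01 to 0.50 in H3K27ac, and between treatments 0.10 to 0.18 and -0.16 to 0.55. With the replicate block the number of members was 431, which could not have differed. That setting averages the differences between sorts over libraries of the same treatment and replicate number, and this average is D itself. The number is therefore no check on the choice of members. In the fit with the block, no treatment call of a member changed.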
